A study of Mus musculus with 6 samples.

Results

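Transcripts of 6 transcription factors that act around T-lineage commitment, Gata3, Bcl11b, Runx1, Runx3, Cbfb and Ets1, were followed in sorted mouse thymus cells. They were taken by gene symbol, and all 6 were found among the 47729 Ensembl genes counted and passed the filter on low counts. The libraries were RNA sequencing libraries of DN1a/b cells, the earliest thymocytes of the CD4- CD8- compartment, from C57BL/6 mice. In RBPJ 6 days induced mice RBPJ had been absent and was switched on for 6 days with doxycycline (an injection at 2 mg/ml, followed by drinking water with 1 mg/ml). RBPJ uninduced mice lacked RBPJ per the labels, and Control mice kept it throughout. Each group had 2 libraries. The sources used here do not give the age of the mice, the alleles that remove and return RBPJ or the cells in which they act, nor do they say whether Control or uninduced mice received doxycycline or whether replicates were separate mice. In comparisons with the induced group, RBPJ and doxycycline therefore cannot be told apart, and each p-value reflects only the replicate spread of these libraries, which may be technical.

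As background, RBPJ carries the signal of Notch receptors to DNA, and Notch signalling in the thymus starts T-cell development. GATA3 is a zinc-finger factor that early T-cell precursors need, and BCL11B is the zinc-finger factor that comes on when precursors lose other lineage options and commit to the T lineage. RUNX1 and RUNX3 bind DNA through their shared runt domain, each as a dimer with CBFB, which does not bind DNA itself. ETS1 belongs to the ETS family and often binds beside RUNX factors at lymphoid genes.

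Gata3 and Runx3 were the members that differed between groups past the threshold, and their promoter windows are shown with that of Runx1, the paralog that did not pass. The sequences are RefSeq windows on GRCm38.p6, the build of mm10, from 250 bases before to 50 bases after an annotated start, written on the gene's strand. Capitals mark the RBPJ core motif TGGGAA and the RUNX motif TGTGGT on either strand (reverse complements TTCCCA and ACCACA), which did not overlap each other.
Gata3, chr2:9878551-9878850, minus strand: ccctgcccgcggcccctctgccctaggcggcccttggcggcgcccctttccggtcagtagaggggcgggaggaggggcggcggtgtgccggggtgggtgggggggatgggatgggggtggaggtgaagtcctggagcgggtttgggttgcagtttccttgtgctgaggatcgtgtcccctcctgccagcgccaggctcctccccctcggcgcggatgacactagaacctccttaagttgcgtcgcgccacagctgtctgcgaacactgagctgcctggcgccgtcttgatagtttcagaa
Runx3, first start, chr4:135120395-135120694, plus strand: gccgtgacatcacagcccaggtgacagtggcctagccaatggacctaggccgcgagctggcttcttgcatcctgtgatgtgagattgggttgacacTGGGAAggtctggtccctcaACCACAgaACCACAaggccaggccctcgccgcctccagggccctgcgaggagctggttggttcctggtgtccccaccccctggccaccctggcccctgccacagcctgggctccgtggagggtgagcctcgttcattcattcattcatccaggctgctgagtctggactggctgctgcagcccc
Runx3, second start, chr4:135152295-135152594, plus strand: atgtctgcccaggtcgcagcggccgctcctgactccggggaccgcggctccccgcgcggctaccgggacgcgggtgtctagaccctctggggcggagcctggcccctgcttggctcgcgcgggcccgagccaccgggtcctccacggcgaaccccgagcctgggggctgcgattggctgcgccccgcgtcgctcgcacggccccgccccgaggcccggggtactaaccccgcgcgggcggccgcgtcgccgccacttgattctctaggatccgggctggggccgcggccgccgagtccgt
Runx1, first start, chr16:92826025-92826324, minus strand: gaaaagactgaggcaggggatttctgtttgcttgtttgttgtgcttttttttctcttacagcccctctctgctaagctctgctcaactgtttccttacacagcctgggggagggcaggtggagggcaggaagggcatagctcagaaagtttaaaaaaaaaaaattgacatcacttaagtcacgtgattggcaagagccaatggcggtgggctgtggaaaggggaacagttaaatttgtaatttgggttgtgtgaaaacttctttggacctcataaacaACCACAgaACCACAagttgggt

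The window at the first start of Runx3 held 1 RBPJ motif, beginning 154 bases before the start, and 2 RUNX motifs, and the first window of Runx1 also held 2 RUNX motifs. The Gata3 window and the second Runx3 window held neither. The RBPJ motif was found in 25.6% and the RUNX motif in 16.8% of the 32851 windows of the same length, so such matches are common. Windows were listed for 5 of the 6 members, 7 in all. Those not printed (Bcl11b, Cbfb and the second start of Runx1) held no match to these motifs, and none of the 7 held the GATA motif AGATAA or the ETS motif CCGGAAG on either strand, which 11.2% and 8.86% of all windows held. Which start was used cannot be read from counts per gene.

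The libraries held 5098927 to 12932928 counts in genes, the 2 shallowest being RBPJ uninduced replicate 1 and Control replicate 2. Rbpj, the gene returned by doxycycline, stood at 198 and 203 CPM (counts per 1000000 of the scaled library total) in RBPJ 6 days induced libraries, 28.2 and 30.0 CPM in RBPJ uninduced libraries and 74.1 and 72.9 CPM in Control libraries. Uninduced libraries thus held the least Rbpj but were not free of its reads, with 162 and 269 counts. Control replicate 2 stood apart: it had a count in 30343 genes, against 18560 to 24025 in the other 5 libraries, and a summed level of 986 CPM over 15 later thymocyte and mature T cell markers, against 38.8 to 419 CPM elsewhere. RBPJ uninduced replicate 2 stood apart in 12 B-lineage markers, with a summed 1047 CPM against 22.8 to 286 CPM in the others. Rag1, a recombinase gene of both lineages, was on both lists; without it the B-lineage sum was 921 CPM in that library and 7.16 to 53.9 CPM in the others. The later thymocyte sum without Rag1 was 729 CPM in Control replicate 2, 403 CPM in Control replicate 1 and 28.0 to 172 CPM in the other 4. RBPJ uninduced replicate 2 also had the largest share of counts in mitochondrial rRNA genes, 16.5% against 9.26% to 12.4% in the others, and the smallest in protein-coding genes, 62.2% against 66.2% to 76.3%. The part of this in the results that turn on that library was not tested. Results that rest on these libraries are given with and without them.

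**Figure D1:**
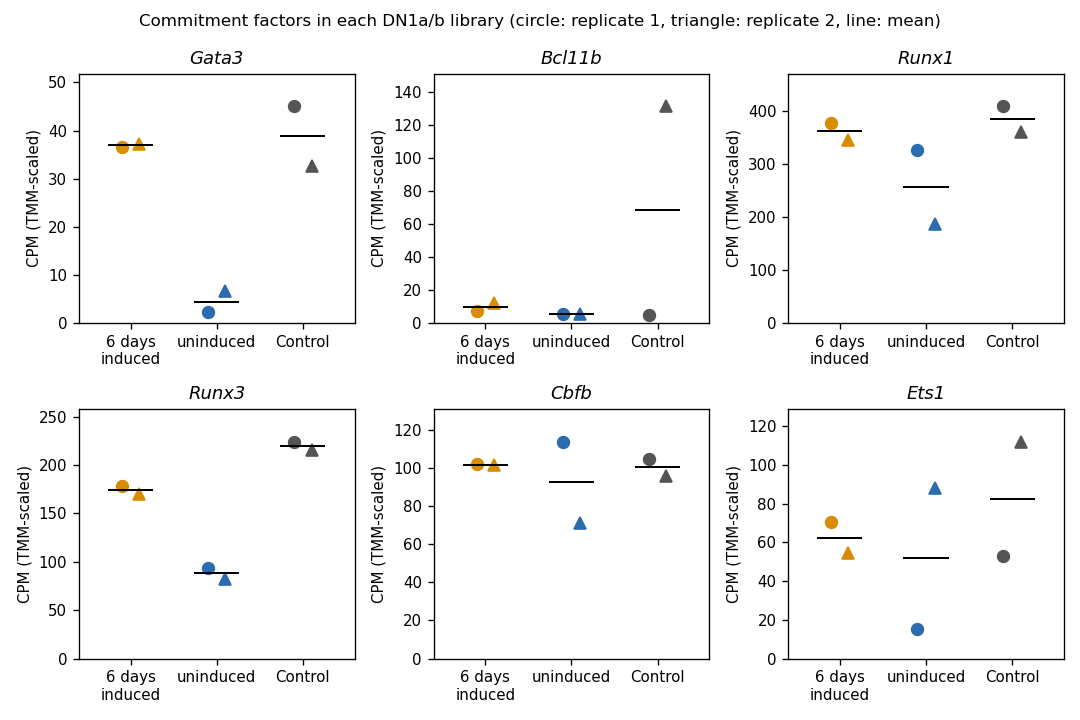
Level of each factor in CPM (y axis, from 0) in each library of the RBPJ 6 days induced, RBPJ uninduced and Control groups (x axis); circles are replicate 1, triangles replicate 2 and lines the mean of 2. Gata3 and Runx3 are low in both uninduced libraries, while Bcl11b is high in 1 Control library (131 CPM) and below 13 CPM in the other 5.

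Gata3 (ENSMUSG00000015619, mm10 chromosome 2, 9857078 to 9890034, minus strand) had 36.6 and 37.3 CPM in RBPJ 6 days induced libraries, 2.26 and 6.58 CPM in RBPJ uninduced libraries and 45.1 and 32.5 CPM in Control libraries. Both uninduced libraries lay far below the other 4, with no overlap, and both induced libraries lay within the range of the 2 Control libraries. The uninduced levels rest on 13 and 59 counts, against 184 to 592 counts in the others. Between RBPJ uninduced and Control the log2 fold change of Gata3 was -3.09 (SE 0.457, edgeR quasi-likelihood test, adjusted p = 0.00617). Between RBPJ 6 days induced and RBPJ uninduced it was 3.02 (SE 0.455, adjusted p = 0.0145).

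Between RBPJ 6 days induced and Control libraries the difference in Gata3 did not pass (-0.07, 95% interval -0.98 to 0.84, adjusted p = 1). That interval spans folds of 0.506 to 1.78, so a change of that size in either direction could not be seen with 2 libraries a group. Both calls of Gata3 were kept whichever single library was left out, with log2 fold changes from -4.12 to -2.63 for uninduced against Control and from 2.54 to 4.04 for induced against uninduced. A fit restricted to the 4 libraries of each comparison, which has fewer degrees of freedom, made neither call (adjusted p = 0.0571 and 0.0761).

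Runx3 (ENSMUSG00000070691, chromosome 4, 135120652 to 135177990, plus strand) was abundant in all libraries. It had 178 and 170.3 CPM in RBPJ 6 days induced libraries, 94.1 and 82.1 CPM in RBPJ uninduced libraries and 224 and 216 CPM in Control libraries. The 3 groups did not overlap: uninduced libraries were lowest, induced libraries in between and Control libraries highest, and the replicates of each group lay close together. Runx3 fell in RBPJ uninduced relative to Control by 1.32 on the log2 scale (SE 0.175, adjusted p = 0.00403). It rose in RBPJ 6 days induced relative to RBPJ uninduced by 0.98 (SE 0.174, adjusted p = 0.0264).

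Relative to Control, Runx3 in RBPJ 6 days induced libraries was at -0.34 (95% interval -0.72 to 0.05, adjusted p = 1), so the gap between these 2 groups did not pass although their libraries did not overlap. The call against Control was kept without any single library (-1.47 to -1.24). The call of induced against uninduced was lost when induced replicate 1 was left out (0.98, adjusted p = 0.205), when induced replicate 2 was left out (1.08, adjusted p = 0.0996) and with only the 4 compared libraries (0.99, adjusted p = 0.0863). In these bulk libraries, fewer cells that express a gene and less RNA per cell cannot be told apart, for Runx3, Gata3 and the factors that follow.

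Over the 6 factors, 2 were lower and none was higher in RBPJ uninduced than in Control libraries, where edgeR called 5.42% of the 18174 genes tested, 2.93% lower and 2.49% higher. Gata3 and Runx3 were also the 2 that were higher in RBPJ 6 days induced than in RBPJ uninduced libraries, and none was lower, where 1.96% of all genes were called, 1.55% higher and 0.413% lower. Between RBPJ 6 days induced and Control libraries edgeR called 0 of 6, DESeq2 also called 0, and 1 member, Bcl11b, had an unadjusted p under 0.05, as did 5.17% of all genes. There 0.187% of all genes were called, all of them higher. The median log2 fold change of the 6 members was -0.99, 0.62 and -0.21 in these comparisons, beside -0.02, -0.03 and -0.02 over all genes tested; the first 2 share the uninduced libraries, and the uninduced and induced comparisons with Control share the Control libraries. Groups that do not overlap were common in these data: 3 of 6 members were lower without overlap in RBPJ uninduced than in Control, as were 22.2% of all genes. In the same way 4 of 6 were higher without overlap in induced than in uninduced libraries, as were 24.8% of all genes, and 1 of 6 was lower without overlap in induced than in Control libraries, as were 16.8%.

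**Figure D2:**
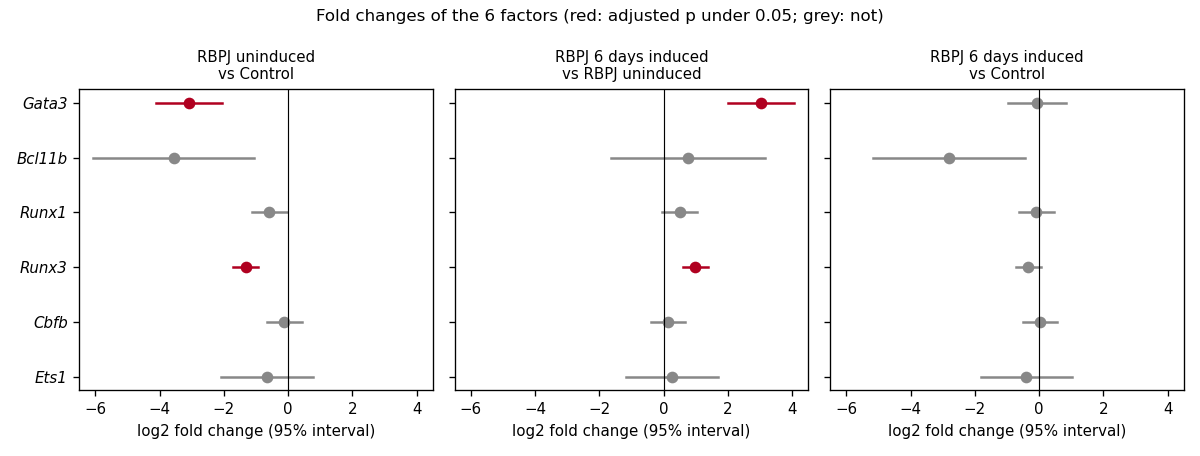
Log2 fold change (x axis) of each factor (y axis) in the 3 comparisons, with bars for the 95% interval from the edgeR fit; red marks an adjusted p under 0.05. Gata3 and Runx3 are red in the first 2 comparisons, on opposite sides of 0, and no factor is red between induced and Control libraries.

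Runx1 (ENSMUSG00000022952, chromosome 16, 92601466 to 92826149, minus strand), a factor that blood stem cells already use, had 378 and 344 CPM in RBPJ 6 days induced libraries, 326 and 187 CPM in RBPJ uninduced libraries and 409 and 359 CPM in Control libraries. Uninduced replicate 2 was the lowest by far and uninduced replicate 1 lay near the lower induced library, while induced and Control libraries overlapped. The log2 fold change of Runx1 was -0.59 for RBPJ uninduced against Control (95% interval -1.14 to -0.03, adjusted p = 0.238). For RBPJ 6 days induced against RBPJ uninduced it was 0.50 (95% interval -0.06 to 1.05, adjusted p = 0.386), and against Control -0.09 (95% interval -0.64 to 0.46, adjusted p = 1). The size of the Runx1 difference was set by which uninduced library was read: without uninduced replicate 1 it passed in both comparisons (-1.10, adjusted p = 0.00572, and 1.01, adjusted p = 0.014), and without uninduced replicate 2 it was -0.25 and 0.16, both not past the threshold (adjusted p = 0.548 and 0.71).

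Cbfb (ENSMUSG00000031885, chromosome 8, 105170674 to 105217989, plus strand), the partner of all RUNX proteins, had 102 and 101 CPM in RBPJ 6 days induced libraries, 114 and 71.0 CPM in RBPJ uninduced libraries and 104 and 95.9 CPM in Control libraries. The uninduced libraries were the highest and the lowest of all 6, so no group stood apart. The log2 fold change of Cbfb was -0.12 for RBPJ uninduced against Control (95% interval -0.66 to 0.42, adjusted p = 0.883), 0.14 for induced against uninduced (95% interval -0.40 to 0.68, adjusted p = 0.848) and 0.02 for induced against Control (95% interval -0.51 to 0.56, adjusted p = 1). These intervals leave room for changes up to about the size seen for Runx1, and the direction of the Cbfb differences changed with the scaling or the library left out.

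Ets1 (ENSMUSG00000032035, chromosome 9, 32636221 to 32757820, plus strand) had 70.6 and 54.4 CPM in RBPJ 6 days induced libraries, 15.1 and 88.4 CPM in RBPJ uninduced libraries and 53.1 and 112 CPM in Control libraries. The uninduced libraries differed 5.84-fold from each other, and the high one was replicate 2, the library with the summed 1047 CPM of B-lineage markers. The replicates of Ets1 differed 1.30-fold in the induced and 2.11-fold in the Control group. The highest Ets1, 112 CPM, was in Control replicate 2, the library with the most later thymocyte RNA. Defining B-lineage genes were lower outside uninduced replicate 2, though not all at 0: Pax5, the B-lineage commitment factor, was at 249 CPM in that library, at 5.39 CPM in uninduced replicate 1 and at 0 to 11.7 CPM in the other 4. Cd79b, a subunit of the B-cell receptor complex, was at 78.9 CPM in that library and at 5.03 to 11.6 CPM in the other 5. The part of B-lineage cells in the Ets1 level was not tested. The log2 fold change of Ets1 for RBPJ uninduced against Control was -0.65 (95% interval -2.08 to 0.77, adjusted p = 0.684).

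Without uninduced replicate 2, Ets1 was lower in RBPJ uninduced than in Control (-2.44, adjusted p = 0.000981) and higher in RBPJ 6 days induced than in RBPJ uninduced (2.06, adjusted p = 0.00516), with the remaining uninduced library assumed to vary like the other groups. Without uninduced replicate 1 the same differences were 0.07 (adjusted p = 0.945) and -0.44 (adjusted p = 0.567). With all 6 libraries, induced against uninduced stood at 0.26 (95% interval -1.16 to 1.68, adjusted p = 0.9) and induced against Control at -0.40 (95% interval -1.82 to 1.02, adjusted p = 1). Ets1 had no direction that held over both uninduced libraries.

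Bcl11b (ENSMUSG00000048251, chromosome 12, 107910403 to 108003602, minus strand) had 7.06 and 12.2 CPM in RBPJ 6 days induced libraries, 5.74 and 5.68 CPM in RBPJ uninduced libraries and 5.10 and 131 CPM in Control libraries. It was low in 5 libraries, from 33 to 131 counts, and high in Control replicate 2 alone, with 743 counts, 25.8 times the CPM of the other Control library. Control replicate 1 had the lowest Bcl11b CPM of all 6 libraries, so the Control group held both ends of the range. The replicate difference of Bcl11b in Control was larger than that of 99.4% of the genes tested.

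Control replicate 2 was also the library with the most RNA of later thymocyte genes. The coreceptor genes Cd8a and Cd8b1 were at 80.0 and 56.2 CPM there and between 0.869 and 3.58 CPM in the other 5 libraries, and Cd4 was at 61.6 CPM there and between 1.22 and 8.57 CPM elsewhere. Themis, a signalling gene of thymocytes, was at 88.6 CPM there and between 3.50 and 6.01 CPM elsewhere. The part of these transcripts' source cells in the Bcl11b level was not tested. By contrast, Gata3 and Runx3 were no higher in Control replicate 2 than in Control replicate 1.

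The log2 fold change of Bcl11b was -3.56 for RBPJ uninduced against Control (SE 1.11, 95% interval -6.06 to -1.06, adjusted p = 0.108) and -2.81 for RBPJ 6 days induced against Control (SE 1.05, 95% interval -5.18 to -0.44, adjusted p = 0.759). Without Control replicate 2 they were 0.07 (adjusted p = 0.989) and 0.88 (adjusted p = 1), and without Control replicate 1 they were -4.49 (adjusted p = 0.000361) and -3.72 (adjusted p = 0.0038). The difference of RBPJ uninduced from Control also passed when uninduced replicate 1 (adjusted p = 0.0493) or an induced library (adjusted p = 0.0048 and 0.0059) was left out, each time with Control replicate 2 in the fit. For RBPJ 6 days induced against RBPJ uninduced, Bcl11b stood at 0.75 (SE 1.06, 95% interval -1.64 to 3.14, adjusted p = 0.808). The means compared use neither Control library, but the SE rests on a spread shared with the Control libraries. With only the 4 compared libraries the SE was 0.516 and the log2 fold change 0.76 (edgeR, adjusted p = 0.523). Both induced libraries were above both uninduced libraries, by less than the spread that the fit of all 6 libraries assigned to this gene. That spread was among the largest (above that of 99.8% of genes).

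**Figure D3:**
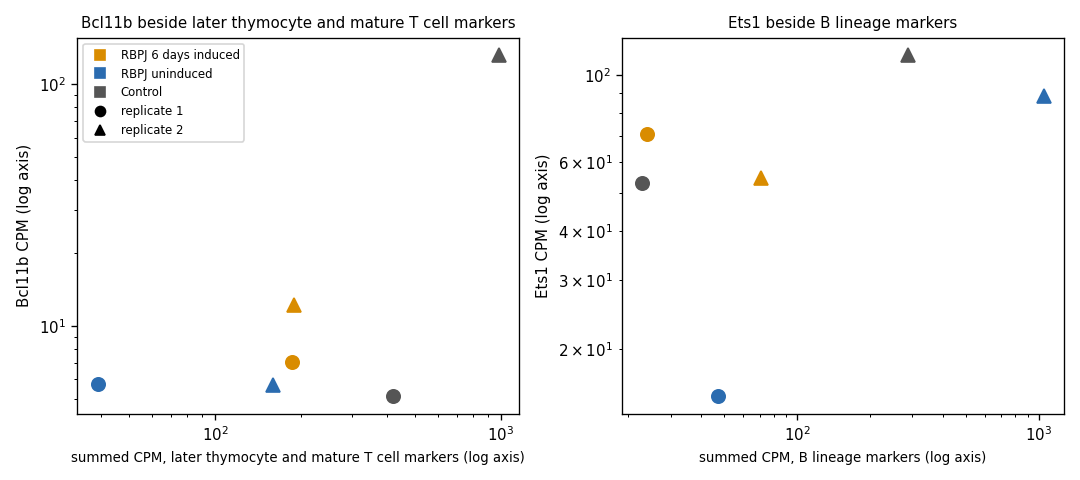
Left, Bcl11b in CPM against the summed CPM of later thymocyte and mature T cell markers; right, Ets1 in CPM against the summed CPM of B-lineage markers, Rag1 included; each point is 1 library and all axes are logarithmic. Control replicate 2 (grey triangle) is alone at the top right for Bcl11b, and RBPJ uninduced replicate 2 (blue triangle) has the most B-lineage RNA with an Ets1 of 88.4 CPM. Control replicate 2 has the highest Ets1 (112 CPM), and its B-lineage sum of 286 CPM is 29.7 CPM without Rag1.

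**Figure D4:**
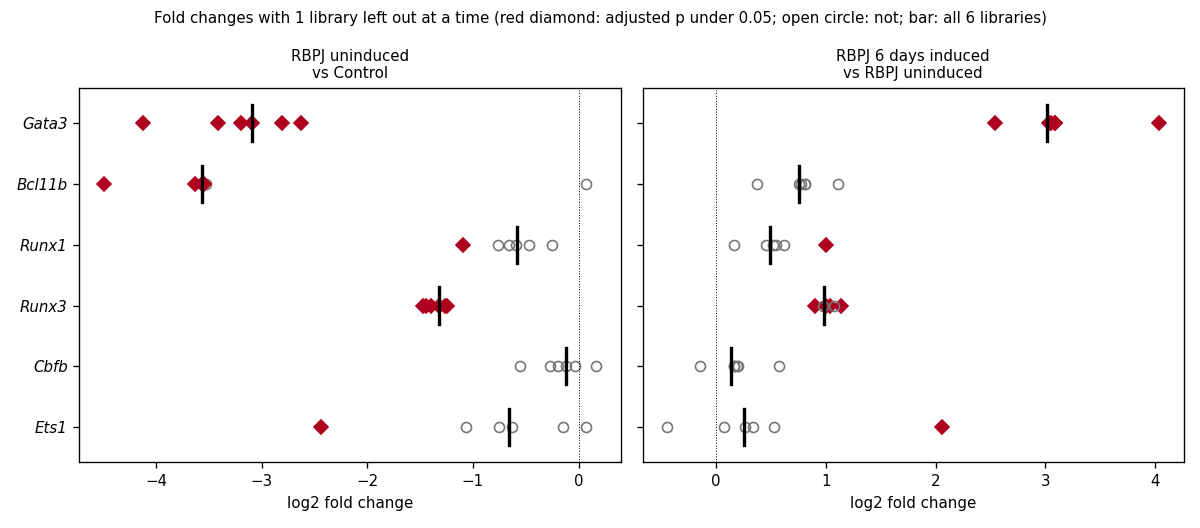
Log2 fold change (x axis) of each factor (y axis) when 1 of the 6 libraries is left out at a time, for RBPJ uninduced against Control and for RBPJ 6 days induced against RBPJ uninduced; red diamonds have an adjusted p under 0.05, open circles do not, and the bar is the value with all 6. The Gata3 and Runx3 points stay on 1 side of 0, and the Ets1 points lie on both sides in each comparison.

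Levels were also compared between members within a library per kilobase of annotated exon, counting every exon of every isoform, which lowers the value of a gene with many isoforms. In Control libraries Runx3 was the highest of the 6 on this scale (44.0 ± 1.24 CPM per kb, mean ± SD, n = 2), then Runx1 (31.9 ± 2.90) and Cbfb (28.8 ± 1.75). Gata3 (9.76 ± 2.23), Ets1 (9.75 ± 4.93) and Bcl11b (8.42 ± 11.01) followed, in opposite orders in the 2 libraries. They were at 11.3, 6.26 and 0.629 CPM per kb in Control replicate 1 and at 8.18, 13.2 and 16.2 CPM per kb in Control replicate 2. Among RBPJ uninduced libraries Cbfb (26.5 ± 8.68 CPM per kb) was above Runx3 (17.6 ± 1.68) in both libraries, at 32.7 against 18.8 and 20.4 against 16.4 CPM per kb. Runx1 (21.3 ± 8.18) was above Runx3 in replicate 1 and below it in replicate 2. Ets1 was at 6.11 ± 6.11, and Gata3 (1.11 ± 0.767) and Bcl11b (0.704 ± 0.00466) had the lowest means. Ets1 was above Gata3 in both uninduced libraries, at 1.78 against 0.568 and 10.4 against 1.65 CPM per kb. After induction the order was Runx3 (34.8 ± 1.08 CPM per kb), Runx1 (30.02 ± 1.97), Cbfb (29.2 ± 0.0724), Gata3 (9.29 ± 0.110), Ets1 (7.37 ± 1.35) and Bcl11b (1.19 ± 0.448), with Runx1 and Cbfb within their spread. The per-kb level of Runx3 was 1.13 and 1.19 times that of Runx1 in induced libraries, 0.694 and 1.06 times in uninduced libraries and 1.32 and 1.44 times in Control libraries. Runx2, the remaining RUNX gene, took 16.6% and 16.3% of the summed per-kb RUNX level in induced libraries, 16.1% and 7.15% in uninduced libraries and 18.1% and 14.5% in Control libraries.

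Among the 3 GATA genes of blood cells, the makeup differed more. Gata3 took 19.2% and 20.01% of the summed per-kb GATA level in RBPJ 6 days induced libraries, 0.893% and 2.37% in RBPJ uninduced libraries and 86.5% and 58.7% in Control libraries. Gata1 took 16.45% and 14.1% in induced, 16.8% and 47.2% in uninduced and 0.477% and 18.7% in Control libraries. Gata2, a factor of stem cells and mast cells, stood at 166.7 and 166.5 CPM in induced, 283 and 190 CPM in uninduced and 9.21 and 17.0 CPM in Control libraries. It rose in RBPJ uninduced relative to Control (log2 fold change 4.21, SE 0.330, adjusted p = 0.000387) and was higher in RBPJ 6 days induced than in Control (3.71, SE 0.323, adjusted p = 0.00309). Gata3 lay within the Control range after induction while Gata2 was far above it, and the per-kb level of Gata2 was 3.35 and 3.29 times that of Gata3 in induced libraries, against 0.151 and 0.385 times in Control libraries.

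**Figure D5:**
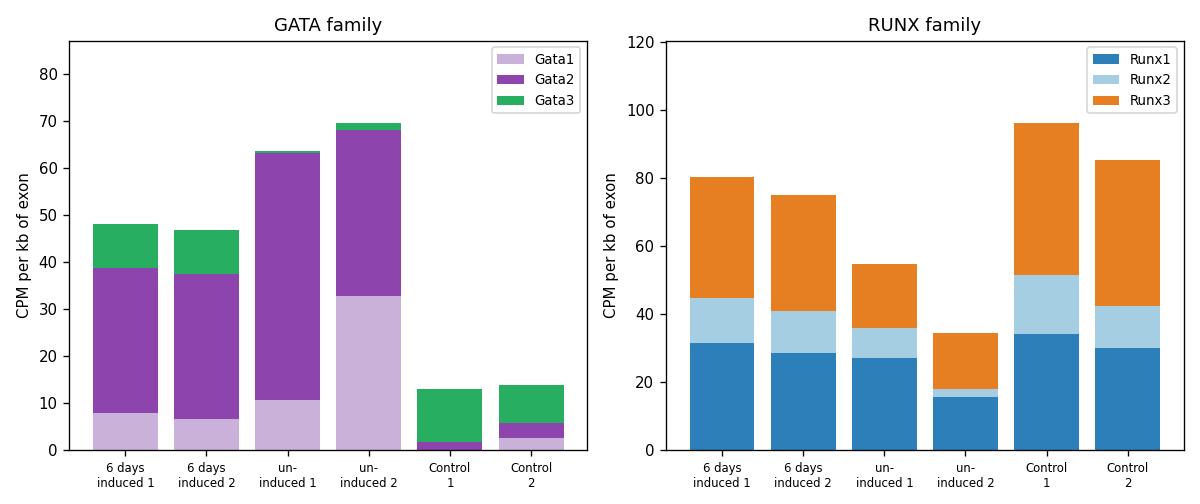
Stacked levels in CPM per kb of exon (y axis, from 0) of the GATA genes (left) and RUNX genes (right) in each library (x axis: induced, uninduced, Control). Gata3 is a thin band in the uninduced libraries and takes 58.7% and 86.5% of the bar in Control libraries, and the RUNX bars are shortest in the uninduced libraries.

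Mast cells and basophils, which use Gata2 and Runx1, showed in their 9 markers a summed 356 and 344 CPM in RBPJ 6 days induced, 943 and 620.4 CPM in RBPJ uninduced and 83.5 and 70.6 CPM in Control libraries. Gata2 is 1 of the 9, and with Cpa3 it made up most of the sum in induced replicate 2 (166.5 and 135.9 CPM). In that library Cma1 and Tpsb2, at 1.58 and 0.652 CPM, lay within their Control range. Hdc and Ms4a2, at 21.7 and 16.0 CPM there, lay above theirs. Induced replicate 1 had Cma1 and Tpsb2 at 24.8 and 20.2 CPM. Of the 12 myeloid markers, the sums were 796 and 1713 CPM in induced, 4473 and 3345 CPM in uninduced and 597 and 519 CPM in Control libraries. Mpo made up most of each sum, with 604 and 1300, 3712 and 2718, and 495 and 420.5 CPM. Of the 12, 7 were higher and none lower in uninduced than in Control (5.42% of all genes called). Csf1r stood at 23.1 and 29.1 CPM in uninduced and 35.2 and 27.8 CPM in Control libraries. The part of mast, basophil and myeloid cells in the levels of Gata3, Runx3 and Runx1 was not tested. For natural killer and innate lymphoid cells, which express Gata3 or Runx3, the 15 markers summed to 250 and 200 CPM in induced, 214 and 247 CPM in uninduced and 108 and 121 CPM in Control libraries. Members of this list went different ways: Il1rl1, a cytokine receptor gene that mast cells also express, was at 44.3 and 25.5 CPM in induced, 68.5 and 79.0 CPM in uninduced and 0.990 and 2.48 CPM in Control libraries. Il18r1, another cytokine receptor gene, was lower in uninduced than in Control (-2.04, adjusted p = 0.0293), and 8 of the 15 were at 0 in uninduced replicate 1. The part of these cells in the Gata3 and Runx3 levels was not tested either. The DN1 markers, 12 genes, summed to 3550 and 3467 CPM in induced, 1932 and 1862 CPM in uninduced and 4184 and 3705 CPM in Control libraries. Of these, Kit, Cd44 and Ptprc were present at 196 CPM or more in every library (Kit at 372 to 631 CPM). In uninduced libraries 5 of the 12 were lower than in Control, Hes1, Notch1, Tcf7, Ptprc and Cd44, and none higher (2.93% and 2.49% of all genes). The erythroid and megakaryocyte markers, 10 genes, summed to 220 and 174 CPM in induced, 307 and 627 CPM in uninduced and 19.2 and 43.3 CPM in Control libraries. Dendritic markers summed to 237.5 to 426 CPM and thymic stromal markers to 99.97 to 173 CPM over the 6 libraries. Pecam1 alone, at 85.0 to 161 CPM, made up most of each stromal sum, and no other stromal marker was above 6.90 CPM in any library.

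The genes around the 6 factors were described as lists. Of 20 T-lineage genes switched on around commitment, 18 were tested. In RBPJ uninduced 5 were lower and none higher than in Control, against 2.93% and 2.49% of all genes. The list had a median log2 fold change of -2.19 (all genes -0.02). It was led by Tox (-4.37, adjusted p = 0.000273) and Tcf7 (-4.36, adjusted p = 0.000387), both factors of early T-cell development. The summed level of the 20 genes was 518 and 587 CPM in induced, 85.7 and 463 CPM in uninduced and 799.8 and 1492 CPM in Control libraries, Rag1 included. In uninduced replicate 2, the library with the B-lineage RNA, Ikzf3 and Rag1 gave 135.5 and 126.4 CPM of the 463. Tcf7, Tox and Cd3e were at 27.4, 5.35 and 0.892 CPM there. Uninduced replicate 1 had Ikzf3 and Rag1 at 4.87 and 10.8 CPM. The part of B-lineage cells in this sum was not tested. After induction, relative to RBPJ uninduced, 4 of the 18 were higher and none lower (median 1.26), against 1.55% and 0.413% of all genes. Tox (3.66, adjusted p = 0.000951) and Tcf7 (3.24, adjusted p = 0.00305) were again among those called. Against Control 0 of the 18 passed in edgeR after induction, with a median of -1.17; DESeq2 called 1 lower (49 over all genes), and the unadjusted p was under 0.05 for 5 (5.17% of all genes). Over the 13 alternatives, chosen for the lists after the data were seen, the lower count in uninduced against Control ran from 4 to 13 and the higher count in induced against uninduced from 2 to 8. Without Control replicate 2, the library with the later thymocyte RNA, it was 4, and without Control replicate 1 it was 10. Without uninduced replicate 2 it was 13, and without uninduced replicate 1 it was 8 with 2 higher.

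Of 16 non-T genes turned down at commitment, 4 were higher and none lower in RBPJ uninduced than in Control, against 2.49% and 2.93% of all genes. Gata2 and Lmo2 (2.14, adjusted p = 0.00133), a partner in the blood stem cell factor complex, had the smallest p. The median of that list was -0.31, and its summed level was 2539 and 2456 CPM in induced, 2298 and 1644 CPM in uninduced and 2012 and 1550 CPM in Control libraries, highest in both induced libraries and overlapping between the other groups. Relative to Control 2 were higher in RBPJ 6 days induced libraries, Gata2 and Lmo2 (1.54, adjusted p = 0.0288), and Lmo2 lost its call without either Control library (adjusted p = 0.0958 and 0.112), with RLE size factors (0.0528), with upper quartile scaling (0.066) and with at least 1 CPM in 4 libraries (0.0698). Over the alternatives the uninduced count of this list ran from 3 to 5 higher and from 0 to 4 lower. Kit, the stem cell factor receptor, and Bcl11a, the paralog of Bcl11b used by progenitors, were not among those called. Bcl11a stood at 482 and 409 CPM in induced, 262 and 297 CPM in uninduced and 441 and 317 CPM in Control libraries, above Bcl11b in every library.

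Of 14 GATA and RUNX relatives and cofactors 13 were tested. In RBPJ uninduced 2 were higher than in Control (Gata2 and Zfpm1, whose protein is a GATA cofactor) and 1 lower, against 2.49% and 2.93% of all genes. Over the alternatives these counts ran from 1 to 4 higher and from 1 to 3 lower. The lower one was Tle3, a Groucho-family corepressor that RUNX proteins recruit (-1.30, SE 0.185, adjusted p = 0.0055), at 129 and 169 CPM in uninduced and 370.0 and 363 CPM in Control libraries. Among 12 NuRD and related partners of BCL11B, which are subunits of a chromatin-remodelling and deacetylase complex plus Bcl11a, 1 was lower, Mta3 (-1.50, SE 0.215, adjusted p = 0.00569), and none was higher (list median 0.05). With 2.93% of all genes lower in that comparison, 1 of 12 is not read as a result about the list. Between RBPJ 6 days induced and RBPJ uninduced edgeR called 0 of these 12, where the unadjusted p was under 0.05 for 3 (15.4% of all genes), Mta3 was at 0.99 (adjusted p = 0.0526) and DESeq2 called 2 higher.

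Of 15 ETS family genes, relatives of Ets1, 2 were lower and none higher in RBPJ uninduced than in Control (5 lower without uninduced replicate 1, 0 without Control replicate 1): Elk3 (-1.21, SE 0.235, adjusted p = 0.0204) and Etv3 (-1.22, SE 0.246, adjusted p = 0.0236), both known as transcriptional repressors. Elk3 was not past the threshold without Control replicate 1 (adjusted p = 0.132), and Etv3 was not without either Control library (adjusted p = 0.0561 and 0.0698). Relative to RBPJ uninduced, 2 were higher after induction, Elf4 (0.94, SE 0.179, adjusted p = 0.0344) and Elk3 (1.17, SE 0.235, adjusted p = 0.0407), and both calls were lost without either induced library. With only the 4 compared libraries none of these calls was kept. The adjusted p was then 0.0923 for Elk3 and 0.101 for Etv3 in uninduced against Control, and 0.087 for Elf4 and 0.101 for Elk3 after induction. Between RBPJ 6 days induced and Control edgeR and DESeq2 called 0 of the 15, and 0 had an unadjusted p under 0.05. Over all genes, edgeR called 2.93% lower in uninduced than in Control and 1.55% higher in induced than in uninduced libraries.

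The genes most alike in pattern were ranked by Pearson's r of log2 CPM over the 6 libraries among 8686 genes; with 6 points that share their libraries, r is a description only. Runx3 was closest to Tcf7l2, an HMG-box factor (r = 1.00), Notch1 (r = 0.999) and the T-cell receptor constant gene Trbc1 (r = 0.999). Notch1 stood at 520 and 484 CPM in RBPJ 6 days induced, 97.7 and 68.8 CPM in RBPJ uninduced and 924 and 782 CPM in Control libraries, the same order of the 6 libraries as Runx3. Gata3 was closest to Serpinb6b (r = 0.998), Ppp2r3d (r = 0.997) and Rfx3 (r = 0.994). Runx1 was closest to Runx2 (r = 0.996), Eml4 (r = 0.992) and Etv6 (r = 0.991), an ETS family repressor, and Cbfb to Armc10 (r = 0.991), Asah2 (r = 0.985) and Nf1 (r = 0.984). Bcl11b was closest to Gmeb2 (r = 0.979), Ano6 (r = 0.969) and Lyst (r = 0.962), likeness that rests on Control replicate 2 being highest, and Ets1 to Trappc3 (r = 0.995), Sqstm1 (r = 0.992) and Hspa1l (r = 0.988).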

How the data were processed

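The deposited values are raw read counts, 1 file a library and 1 line an Ensembl gene, with no line for unassigned reads. Per the submitters' processing notes, HISAT2, StringTie and HTSeq were used with mm10; the sources used here give neither versions nor roles, annotation or strand setting. Strand being unknown, reads of antisense genes that overlap members cannot be told apart from theirs; genes overlapping a member held at most 45 counts in a library. Names and coordinates came from GENCODE M21 (GRCm38), which matched 47310 of 47729 gene IDs.

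Counts were tested with edgeR 4.0.16 (R 4.3.3): filterByExpr (minimum count 10, minimum total 15) left 18174 genes, libraries were scaled by TMM (factors 0.824 to 1.13), and 1 quasi-likelihood fit took all 6 libraries, with 1 mean for each group (residual degrees of freedom: 3). CPM use the scaled totals. P-values were adjusted by Benjamini-Hochberg over all 18174 genes, with a threshold of 0.05. The SE is the log2 fold change divided by the root of F, and 95% intervals use the fit's degrees of freedom. An exact permutation test of 2 against 2 libraries cannot go below p = 0.333, so none was used. The fit was tested on simulated counts, where the slope of fitted on true log2 fold changes was 0.923 to 1.02. It called 10.6% to 13.6% of 2-fold, 40.3% to 50.7% of 4-fold and 44.8% to 61.2% of 8-fold changes. Of 87 to 94 calls 14 to 16 were false, a share above the nominal rate. Calls near the threshold may therefore be less secure than their adjusted p, and many true changes may not pass. The simulation changed 66 or 67 genes at each fold, while 985 were called between uninduced and Control libraries, so its rates need not hold here. Replicates differed by more than sampling noise in each group (chi-square per degree of freedom 16.5 to 51.8), so none was merged.

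The members and gene lists were chosen with earlier results of these data known. From each pathway list the called genes of smallest p, at most 2, were named, and for each factor the 3 genes with the highest r (average log2 CPM of at least 3, prior count 2; no clone-named genes or pseudogenes). Pax5, Cd8a, Cd8b1, Cd4, Themis, Kit, Bcl11a, Runx2, Rag1, Hes1, Ptprc, Cd44, Zfpm1, Cd79b, Il1rl1, Il18r1, Gata1, Cpa3, Cma1, Tpsb2, Hdc, Ms4a2, Mpo, Csf1r, Pecam1, Ikzf3, Cd3e and Mta3 after induction were named after their values were seen. Alternatives were other scaling, DESeq2 1.42.0, other filters, the 4 compared libraries alone, each library left out in turn, and replicate number as a block.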

Additional observations from a re-analysis of the deposited data

How the results depend on the processing

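Of the 6 factors, the lower level of Gata3 and Runx3 in RBPJ uninduced than in Control kept its direction under all 13 alternatives, and was past the threshold in all but 1 for Gata3 (only the 4 compared libraries) and in all for Runx3. Members past the threshold numbered 2 in that comparison and 1 with only the 4 compared libraries (2 to 4 with 1 library left out). For RBPJ 6 days induced against RBPJ uninduced they numbered 2, 0 with only the 4 compared libraries, and 1 to 3 with 1 library left out. For induced against Control they numbered 0, 1 with no low-count filter (Bcl11b), and 0 to 1 with 1 library left out. With no low-count filter Bcl11b passed against Control in both comparisons (-3.51 and -2.72); the cause was not tested.

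Over all genes, RBPJ uninduced against Control gave 985 calls, 1859 with DESeq2, 1540 with no low-count filter, 219 with only the 4 compared libraries and 445 to 2000 with 1 library left out. Induced against uninduced gave 357, and 1238, 989, 71 and 171 to 1374 in the same settings. Induced against Control gave 34, and 228, 304, 177 and 30 to 337. The cause of these differences was not tested. A fit of 4 libraries has fewer samples, yet for induced against Control it gave more calls (177 against 34). The number of calls between 2 groups thus changed when libraries were taken out of the fit. Those fits also redid the filter and the scaling, with 15435 to 21302 genes tested against 18174, so these changes cannot be told apart.

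The sign of the Cbfb fold change for induced against Control turned with scaling and filter: -0.0462 by RLE size factors, -0.0667 by upper quartile scaling, -0.0462 by DESeq2, -0.0317 with at least 1 CPM in 4 libraries and -0.0261 with only the 4 compared libraries, against 0.02; none passed. With 1 library left out it ran from -0.0781 to 0.13, and for Cbfb in the other comparisons from -0.55 to 0.17 (uninduced against Control) and from -0.15 to 0.57 (induced against uninduced). For Ets1 the ranges were -2.44 to 0.0735, -0.44 to 2.06 and -0.79 to 0.20 (induced against Control), for Bcl11b -4.49 to 0.067 and -3.72 to 0.88 against Control, and for Gata3 and Runx1 in induced against Control -0.32 to 0.23 and -0.22 to 0.0552. Scaling moved the median of all genes by -0.0985 to 0.00895.

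With the replicate number as a block (replicate block), the calls of Gata3 and Runx3 were the same, and induced against Control gave 108 genes in place of 34; the other counts over all genes were 1147 and 534, and the block moved some gene list counts by over 1.5 times. Replicate differences did not correlate between groups (-0.0407, 0.0253 and 0.0107). Whether the replicate numbers pair the libraries cannot be settled by these correlations, which rest on 2 libraries a group. With 2 libraries a group, many differences of modest size would not pass.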
